A study of Mus musculus with 8 samples.

Results

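The 9 genes described here encode the potassium channel subunits that end the cardiac action potential, Kcnd2, Kcnd3, Kcnip2, Kcna4, Kcna5, Kcnq1, Kcnh2, Kcne1 and Kcnk3. They were taken by name, through their Ensembl identifiers, from a count table of 37991 mouse genes, and all 9 were found and passed the filter on low counts. RNA came from adult cardiomyocytes, isolated 2 weeks after mouse hearts were injected with adenoviruses that carry 4 cell cycle genes (4F in the labels). All mice were of one background, alpha-MHC MERCREMER MADM: a Cre recombinase that needs tamoxifen, driven by the cardiomyocyte promoter alpha-MHC, together with MADM (mosaic analysis with double markers), a pair of split fluorescent reporters that recombination between chromosomes, followed by division, can separate into daughter cells of 1 color. The comparison is between single colored cells (4 libraries), labelled as having performed the cell cycle after 4F, and double colored cells (4 libraries), labelled as given 4F without having cycled, so both groups carry the same transgenes and received the same viruses. Neither age nor sex is given. The labels carry the same id numbers in both groups but do not say what an id stands for, and they name no animal. The p-values therefore describe the spread among these libraries, part of which may be technical.

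An action potential in a heart muscle cell ends when potassium leaves the cell. In mouse ventricle, where the heart beats fast, this outward current is carried mainly by the fast transient outward current (Ito), built from Kv4.2 (Kcnd2) and Kv4.3 (Kcnd3) with the calcium-sensing subunit KChIP2 (Kcnip2), by slower Kv1.4 (Kcna4) channels, and by delayed rectifiers such as Kv1.5 (Kcna5). The currents IKr (Kcnh2) and IKs (Kcnq1 with Kcne1), which dominate in larger mammals, are small in the adult mouse. Loss of Kv4 and KChIP2 expression is a well known feature of hypertrophied and failing hearts. By function, 6 of the genes encode voltage-gated pore-forming subunits and 2, Kcnip2 and Kcne1, encode auxiliary subunits, while 1, Kcnk3, encodes the two-pore background channel TASK-1, which is not gated by voltage in the classical sense.

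None of the 9 genes differed between the groups at an adjusted p under 0.05 by the quasi-likelihood test of edgeR, run over 12466 genes, of which 2.48% passed and 0.16% passed as lower in single colored cells. DESeq2 called none of the 9 either. All 9 log2 fold changes, given as single over double colored, lay below 0, from −1.07 for Kcna5 to −0.26 for Kcnd3, with a median of −0.43 against −0.01 over all genes tested, of which 50.6% lay below 0. At an unadjusted p under 0.05, 4 of the 9 were lower in single colored cells, Kcnd2, Kcna5, Kcne1 and Kcnip2, and none was higher, while 6.1% of all genes were lower and 15.1% differed in either direction at that threshold. With the replicate number as a block, which pairs the libraries, 1 gene passed, Kcnd2 (log2 fold change −0.69 ± 0.20 SE, edgeR adjusted p = 0.0439), while 7.53% of all genes passed in that fit and 2.57% passed as lower. Without single colored replicate 2, 1 gene passed, Kcna5 (−1.84, edgeR adjusted p = 0.0203), beside 2.37% of all genes and 0.21% as lower.

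For Kcnd3, Kcnip2, Kcna4, Kcnq1, Kcnh2 and Kcnk3 the sign of the difference depended on how the libraries were scaled. Kcnd2, Kcna5 and Kcne1 stayed below 0 in every fit that tested them, at most at −0.17, −0.64 and −0.38. The markers of heart muscle cells (Myh6, Actc1, Tnnt2 and others) were themselves at a median log2 fold change of −0.41, with none of 11 tested past the threshold, and their summed level ran from 13600 to 24400 CPM (read counts scaled for depth with TMM factors) in single and from 21400 to 28200 CPM in double colored libraries. When libraries were scaled by the cardiomyocyte markers in place of TMM, 5 of the 9 genes lay below 0 and the range was −0.64 to 0.13. None had an unadjusted p under 0.05. That scaling moved the median of all genes to 0.45, beside a median of −0.03 for the 9 genes. Scaling by library totals alone moved the median of all genes to 0.48, beside 0.03 for the 9 genes, of which 3 then lay below 0. The share of all genes below 0 was not counted in either fit. Mitochondrially encoded genes took 84.2% to 88.3% of those totals in double and 77.5% to 85.9% in single colored libraries. In bulk RNA, fewer cells of a type and less RNA per cell cannot be told apart. Some markers of other cells passed as higher in single colored cells. These were all 6 tested lymphocyte markers, 3 of 6 genes listed for macrophages (Ptprc, Adgre1 and Itgam) and 1 of 6 fibroblast markers (Col1a1). Of the macrophage list, Ptprc is also expressed by lymphocytes. Lyz2, Csf1r and Cd68 of that list did not pass, at log2 fold changes of 0.73, 0.55 and 0.31 (edgeR adjusted p = 0.0738, 0.160 and 0.488). Summed levels were 16.0 to 30.7 against 1.55 to 4.06 CPM for lymphocytes and 159 to 274 against 87.8 to 121 CPM for macrophages. For fibroblasts they were 537 to 1460 against 254 to 564 CPM. Log2 fold changes were 1.76, 1.44 and 1.00 for Col1a1, Col1a2 and Col3a1, but 0.09, −0.10 and 0.29 for Pdgfra, Dcn and Lum. None of 6 endothelial and none of 6 tested vascular smooth muscle and pericyte markers passed (medians −0.13 and −0.01). The part of these other cells in the lower channel levels was not tested. Of the markers of cardiomyocytes, Tnnc1 had 0 reads in every library.

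The libraries held 23820700 to 30082278 counted reads, of which mitochondrially encoded genes took 77.5% to 88.3%, leaving 3503353 to 6112595 reads for the nuclear genome. The 9 genes together received 1148 to 2275 reads in a library. Single colored replicate 1 stood apart: it had the lowest level of all 8 libraries for 5 of the 9 genes, the lowest cardiomyocyte marker sum and the highest lymphocyte, macrophage and fibroblast sums (30.7, 274 and 1460 CPM). Without it none of the 9 passed, while of 12637 genes tested 134 passed as higher and 8 as lower. All 9 still lay below 0, beside a median of −0.01 over all genes, and 2 had an unadjusted p under 0.05. The shares of all genes below 0 and at that unadjusted threshold were not counted in this fit.

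The promoter windows of 3 genes are shown because Kcnd2 and Kcnip2 were the members with no overlap between the groups and Kcna5 had the largest fold change. Each runs 5′ to 3′ on the gene's strand from 250 bases before to 50 bases after the RefSeq start site in GRCm38.p6, whereas the counts were made on mm9. Capitals mark GGGCGG, the GC box bound by Sp1-type factors. The windows are chr6:21215096-21215395 (plus strand) for Kcnd2, chr19:45816014-45816313 (minus strand) for Kcnip2 and chr6:126535506-126535805 (minus strand) for Kcna5.
Kcnd2: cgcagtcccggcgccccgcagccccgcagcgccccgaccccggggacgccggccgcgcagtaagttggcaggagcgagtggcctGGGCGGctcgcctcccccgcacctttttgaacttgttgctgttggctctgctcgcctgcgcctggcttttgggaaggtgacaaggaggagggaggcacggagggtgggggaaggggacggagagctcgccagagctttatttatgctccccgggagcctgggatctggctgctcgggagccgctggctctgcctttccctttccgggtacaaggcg
Kcnip2: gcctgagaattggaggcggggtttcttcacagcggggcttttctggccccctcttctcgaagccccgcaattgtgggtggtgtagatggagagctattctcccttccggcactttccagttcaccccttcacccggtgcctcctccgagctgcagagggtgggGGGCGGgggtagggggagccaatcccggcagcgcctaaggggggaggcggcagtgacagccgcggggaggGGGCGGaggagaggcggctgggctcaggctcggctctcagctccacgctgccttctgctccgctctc
Kcna5: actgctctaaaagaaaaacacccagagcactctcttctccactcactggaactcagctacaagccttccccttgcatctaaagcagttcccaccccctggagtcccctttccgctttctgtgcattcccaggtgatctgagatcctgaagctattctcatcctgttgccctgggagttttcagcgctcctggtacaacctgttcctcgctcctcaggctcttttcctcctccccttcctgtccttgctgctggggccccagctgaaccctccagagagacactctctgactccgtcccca

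RefSeq windows of 300 bases were at hand for 6 of the 9 genes. GGGCGG, searched on both strands, occurred in 4 of these, once in Kcnd2, 2 times in Kcnip2 and 3 times each in Kcna4 and Kcnh2, and in 35.7% of the 32851 windows in the table. Kcnd3 and Kcna5 held no GGGCGG. Neither TATAAA (13.6% of all windows) nor GATAA (25.4%), both searched on both strands, occurred in any of the 6, which says only that these letters are not in these windows. GC content was 68.7% in Kcnd2, 67.0% in Kcnip2 and 55.0% in Kcna5, beside a median of 52.7% over all windows.

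Levels were compared between genes per kilobase of the deposited feature length (CPM per kilobase, mean ± SD, n = 4). In double colored cells Kcnk3 was the most abundant at 5.71 ± 0.403, followed by Kcnip2 at 4.01 ± 0.369. Kcnq1 at 1.49 ± 0.320, Kcnd2 at 1.38 ± 0.173 and Kcnh2 at 1.18 ± 0.245 came next, each overlapping its neighbour in the order over the 4 libraries. Kcna5 stood at 0.797 ± 0.0709, above Kcnd3 at 0.605 ± 0.0787, whose libraries overlapped those of Kcne1 at 0.457 ± 0.168. Kcna4 was lowest at 0.0850 ± 0.0305. Thus the Kv4 partner Kcnip2 was more abundant per kilobase than either Kv4 gene, and the Kv1.4 gene was detected at 5 to 13 reads per library. In single colored cells the order was the same except that Kcnd3 (0.506 ± 0.132) came before Kcna5 (0.381 ± 0.337), and there these genes overlapped. The deposited feature lengths used here run from 3003 bases for Kcna5 to 9587 bases for Kcnd3.

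**Figure D1:**
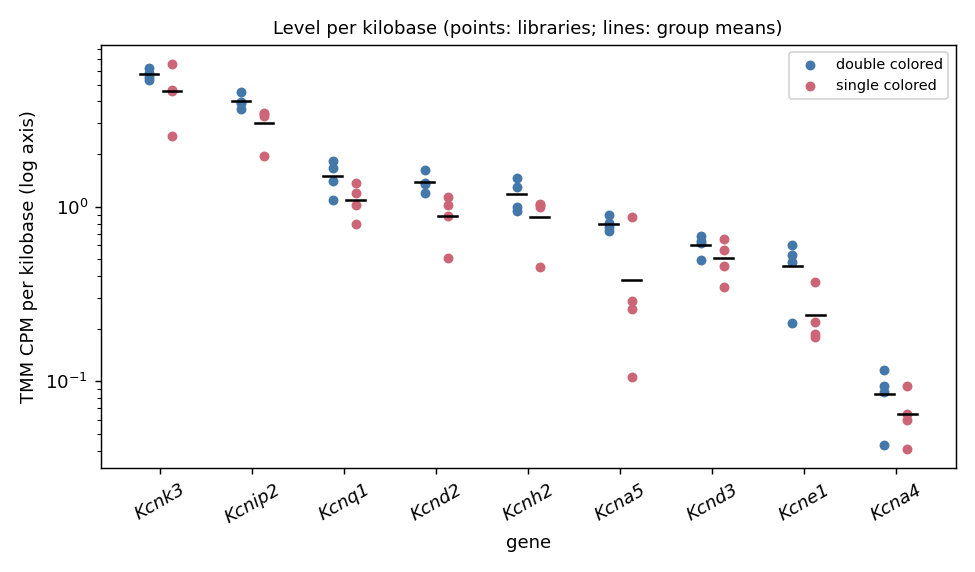
Level of each gene in TMM CPM per kilobase of feature length (log axis), with 1 point per library and a line at the group mean of 4 double (blue) or 4 single colored (red) libraries. Kcnk3 and Kcnip2 lead in both groups and Kcna4 is lowest, and Kcna5 is spread widely among the single colored libraries.

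Kcnd2 (ENSMUSG00000060882, mm9 chromosome 6, 21165503 to 21679805) encodes Kv4.2, the main pore of the fast transient outward current in mouse ventricle. Its level was 6.16, 8.32, 7.04 and 6.98 CPM in double colored replicates 1 to 4 and 2.62, 4.57, 5.83 and 5.24 CPM in single colored replicates 1 to 4. All 4 single colored libraries lay below all 4 double colored ones. Of the 9 genes 2, Kcnd2 and Kcnip2, were separated in this way, as were 3.76% of tested genes (9.14% in either direction). The group means were 4.56 ± 1.39 and 7.12 ± 0.892 CPM (SD, n = 4), so that single colored cells had 64.0% of the double colored level. On the log2 scale this is −0.64 ± 0.23 (SE, edgeR adjusted p = 0.186), and with the replicate block −0.69 ± 0.20 (SE, edgeR adjusted p = 0.0439). In the numbered pairs the log2 difference ran from −1.23 to −0.27, lower in single colored cells in 4 of 4. Kcnip2, Kcnq1 and Kcne1 were also lower in 4 of 4 pairs, Kcna4, Kcna5, Kcnh2 and Kcnk3 in 3 and Kcnd3 in 2. The share of all genes lower in 4 of 4 pairs was not counted. Leaving out 1 library at a time kept the log2 fold change between −0.80 and −0.45 and the edgeR adjusted p between 0.110 and 0.400. With cardiomyocyte marker scaling the log2 fold change of Kcnd2 was −0.28 (edgeR adjusted p = 0.470). In the authors' deposited table Kcnd2 had a log2 fold change of 0.65 from single to double colored cells, with a raw p of 0.0321 and an FDR of 0.458.

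Kcnd3 (ENSMUSG00000040896, chromosome 3, 105255248 to 105476920) encodes Kv4.3, the second Kv4 pore of this current. Double colored replicates 1 to 4 had 5.90, 4.73, 6.09 and 6.48 CPM, and single colored replicates 1 to 4 had 3.33, 5.44, 6.24 and 4.41 CPM. The groups overlapped, with single colored replicate 3 above 3 of the double colored libraries. Its log2 fold change was −0.26 ± 0.22 (SE; edgeR adjusted p = 0.653), and it turned to 0.13 with cardiomyocyte marker scaling and to 0.21 with library totals. It was −0.12 without single colored replicate 1 and −0.41 without single colored replicate 3. Of its feature length 1.72% overlaps Kcnd3os on the opposite strand, which had 17 reads in all libraries together. As a measure free of scaling, the ratio of Kcnd3 to Kcnd2 reads within a library was 0.959, 0.569, 0.865 and 0.928 in double and 1.27, 1.19, 1.07 and 0.842 in single colored replicates 1 to 4. On the log2 scale the ratio differed by 0.41 between the groups, less than the spread between libraries could separate (exact permutation test, two-sided, p = 0.114, 0.229 adjusted over 4 ratios; the smallest p that 70 groupings allow is 0.0286).

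Kcnip2 (ENSMUSG00000025221, chromosome 19, 45866329 to 45890551) encodes KChIP2, which binds Kv4 channels and raises their number at the cell surface. Its level was 12.6, 13.7, 13.7 and 15.7 CPM in double and 6.79, 11.5, 11.8 and 11.9 CPM in single colored replicates 1 to 4. The groups did not overlap, with single colored replicate 1 far below the other 3, which lay just under the lowest double colored library. The means were 10.5 ± 2.48 and 13.9 ± 1.28 CPM (SD, n = 4), a difference of −0.41 ± 0.18 on the log2 scale (SE; edgeR adjusted p = 0.300). With the block the value was −0.44 ± 0.15 (edgeR adjusted p = 0.0876), and without single colored replicate 1 it was −0.25. With cardiomyocyte marker scaling it was −0.03. The ratio of Kcnip2 to Kcnd2 reads lay between 1.64 and 2.25 in double and between 2.02 and 2.58 in single colored libraries, a log2 difference of 0.25 (exact permutation test, two-sided, p = 0.114, 0.229 adjusted), higher in the single colored library in 4 of 4 numbered pairs (exact sign flips within pairs, p = 0.125, the smallest they allow).

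Kcna4 (ENSMUSG00000042604, chromosome 2, 107130796 to 107138659) encodes Kv1.4, the slow transient outward channel of the septum and of young hearts. It had 5, 10, 13 and 10 reads in double and 11, 13, 12 and 5 reads in single colored replicates 1 to 4, or 0.209 to 0.562 and 0.198 to 0.454 CPM. The groups overlapped over most of their range, and the log2 fold change, −0.38 ± 0.55 (SE; edgeR adjusted p = 0.814), carries the largest standard error of the 9. Omitting double colored replicate 1 or single colored replicate 2 gave −0.60, omitting double colored replicate 3 gave −0.20, and omitting single colored replicate 4 gave −0.24. Its ratio to Kcnd2 lay between 0.0373 and 0.0826 in double and between 0.0415 and 0.114 in single colored libraries (log2 difference 0.32, exact permutation test, two-sided, p = 0.486, 0.486 adjusted). The numbered pairs were split, 2 with a higher and 2 with a lower ratio in the single colored library.

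Kcna5 (ENSMUSG00000045534, chromosome 6, 126482571 to 126485573) encodes Kv1.5, an ultrarapid delayed rectifier found in heart and in vascular smooth muscle. Double colored libraries were close together, at 2.43, 2.18, 2.29 and 2.67 CPM in replicates 1 to 4. Single colored replicates 1, 3 and 4 had 0.865, 0.781 and 0.317 CPM, or 33, 30 and 8 reads, while replicate 2 had 2.62 CPM, or 75 reads. Replicate 2 thus lay within the double colored range and the other 3 below it. The log2 fold change was −1.07 ± 0.45 (SE; 47.8% of the double colored level, edgeR adjusted p = 0.274), and −1.35 ± 0.42 with the block (edgeR adjusted p = 0.0560). Across single omissions it ran from −1.84 without single colored replicate 2 to −0.78, and with cardiomyocyte marker scaling it was −0.64 (edgeR adjusted p = 0.411). Vascular smooth muscle and pericyte markers summed to 292, 321, 224 and 269 CPM in single and to 291 to 400 CPM in double colored libraries, highest among the single colored in replicate 2, where Kcna5 was also highest. Their part in the Kcna5 values was not tested.

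Kcnh2 (ENSMUSG00000038319, chromosome 5, 23825407 to 23857422) encodes the ERG1 pore of the rapid delayed rectifier IKr. Its level was 4.82, 4.59, 6.31 and 7.06 CPM in double and 2.17, 4.99, 4.97 and 4.84 CPM in single colored replicates 1 to 4. Single colored replicates 2 to 4 lay above 2 and below 2 of the double colored libraries, and replicate 1 lay below all of them. The log2 fold change was −0.43 ± 0.26 (SE; edgeR adjusted p = 0.472), −0.21 without single colored replicate 1, and 0.00 with library totals.

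Kcnq1 (ENSMUSG00000009545, chromosome 7, 150293159 to 150612955) encodes the pore of the slow delayed rectifier IKs, and Kcne1 (ENSMUSG00000039639, chromosome 16, 92346246 to 92359713) its auxiliary subunit minK. Kcnq1 stood at 3.35, 4.32, 5.14 and 5.60 CPM in double and at 3.17, 4.19, 3.69 and 2.46 CPM in single colored replicates 1 to 4. Kcne1 stood at 1.93, 1.68, 0.691 and 1.55 CPM in double and at 1.18, 0.698, 0.572 and 0.595 CPM in single colored replicates 1 to 4. The groups overlapped for both genes, for Kcne1 through double colored replicate 3, which lay below 2 of the single colored libraries. Log2 fold changes were −0.44 ± 0.24 for Kcnq1 and −0.93 ± 0.41 for Kcne1 (SE; edgeR adjusted p = 0.401 and 0.296). With cardiomyocyte marker scaling Kcnq1 was at 0.02 and Kcne1 at −0.39. Each gene was lower in single colored cells in 4 of 4 numbered pairs, but for Kcnq1 pairs 1 and 2 differed little (−0.08 and −0.04). The log2 differences reached −1.19 for Kcnq1 and ran from −1.38 to −0.27 for Kcne1. The ratio of Kcne1 to Kcnq1 reads lay between 0.138 and 0.578 in double and between 0.158 and 0.374 in single colored libraries (log2 difference −0.45, exact permutation test, two-sided, p = 0.457, 0.486 adjusted).

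Kcnk3 (ENSMUSG00000049265, chromosome 5, 30890543 to 30927643), the acid-sensitive background channel TASK-1, had the most reads of the 9, from 369 to 961 per library. Its level was 20.1, 21.1, 22.0 and 23.7 CPM in double and 9.67, 17.6, 25.0 and 17.8 CPM in single colored replicates 1 to 4. Single colored replicate 3 was the highest of all 8 libraries and replicate 1 the lowest. The SD among single colored libraries was 6.27 CPM against 1.53 CPM among double colored ones, and the log2 fold change was −0.31 ± 0.21 (SE; edgeR adjusted p = 0.533), or 0.04 with cardiomyocyte marker scaling. It was −0.12 without single colored replicate 1 and −0.54 without single colored replicate 3 (edgeR adjusted p = 0.850 and 0.184).

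**Figure D2:**
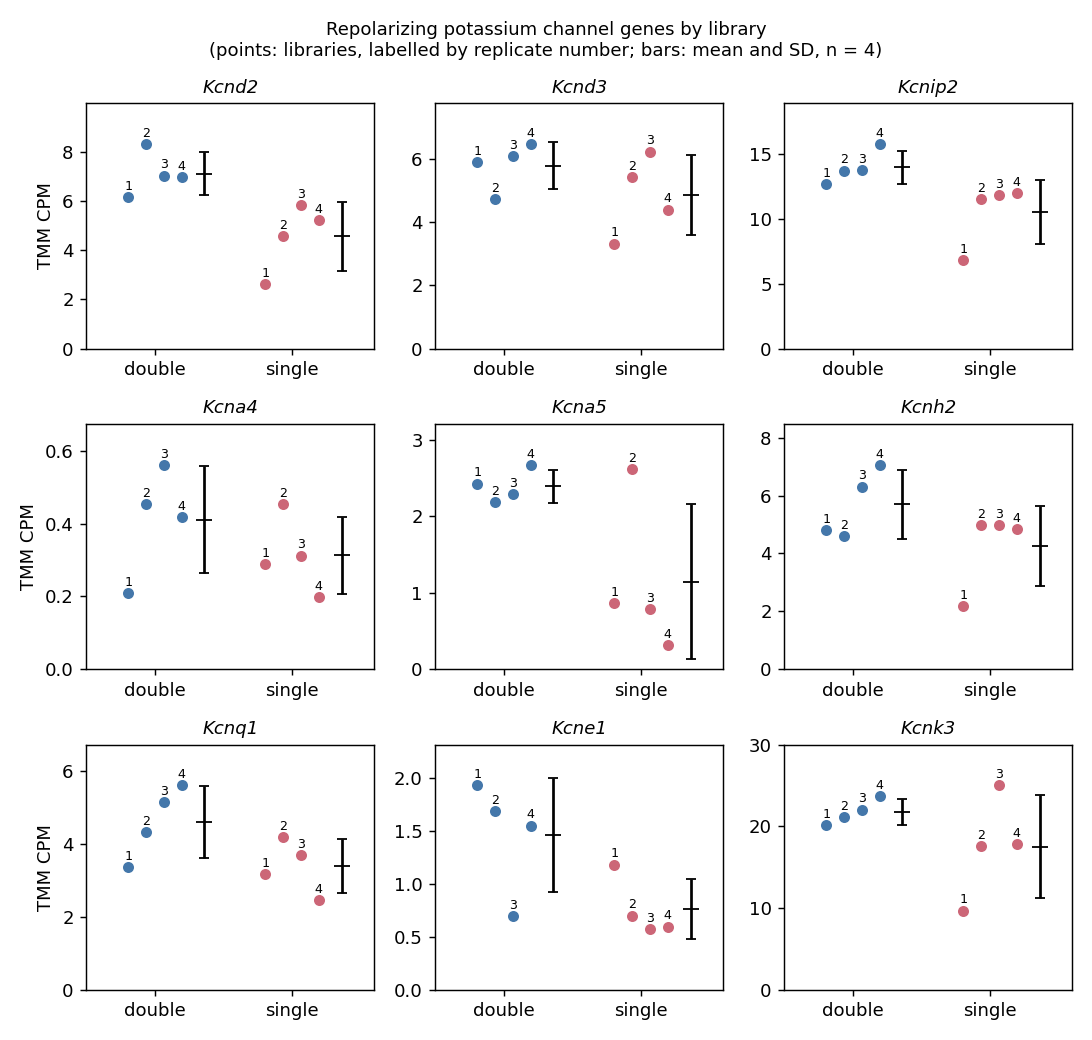
TMM CPM of each of the 9 genes in every library, by group, with points labelled by replicate number and bars for the mean and SD of 4 libraries (axes start at 0). All single colored points lie below the double colored ones for Kcnd2 and Kcnip2, and single colored replicate 1 is the lowest point for 5 genes.

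**Figure D3:**
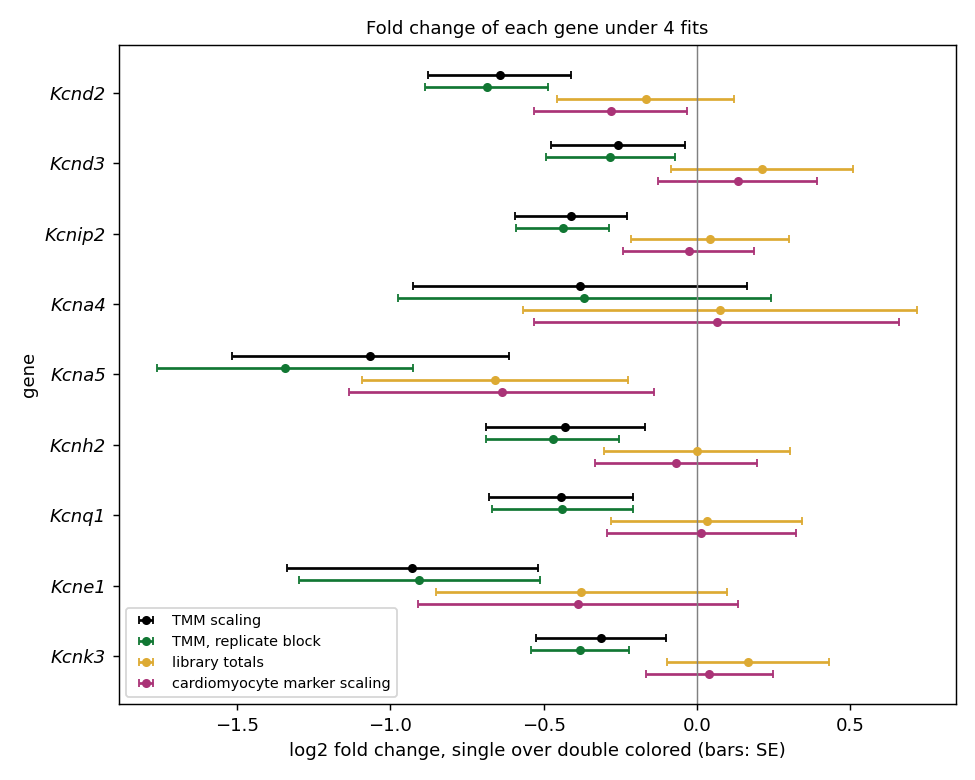
Log2 fold change of single over double colored cells with its SE for each gene, under TMM scaling, TMM with the replicate block, library totals and cardiomyocyte marker scaling. With TMM all 9 genes lie below 0, from −1.07 to −0.26, and with cardiomyocyte marker scaling they lie between −0.64 and 0.13. The median of all genes tested is −0.01 with TMM and 0.45 with cardiomyocyte marker scaling.

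The 9 genes differed in how they varied from library to library within a group. After subtraction of each group's mean, Kcnip2 and Kcnh2 varied most alike (Pearson r = 0.95 over 8 libraries), and Kcnd2, Kcnip2, Kcnh2 and Kcnk3 had r of 0.77 to 0.95 among themselves. Kcnd3 had r of 0.87 with Kcnk3, 0.85 with Kcnh2, 0.76 with Kcnip2 and 0.62 with Kcnd2. Kcna4 and Kcnq1 formed another like pair (r = 0.88), though Kcna4 had only 5 to 13 reads per library. Kcne1 ran against most of the others, down to r = −0.68 with Kcnh2, and the median over all 36 pairs was 0.24. These values describe 8 libraries that share scaling and depth. Kcnd2, Kcnd3, Kcnip2, Kcnh2 and Kcnk3 each had their lowest level in single colored replicate 1, and the part of that library in these correlations was not tested.

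The summed level of the 9 genes was 57.6, 61.0, 63.9 and 70.2 CPM in double and 30.1, 52.0, 59.2 and 47.8 CPM in single colored replicates 1 to 4. Their lowest value and the lowest cardiomyocyte marker sum, 13600 CPM, were both in single colored replicate 1, while double colored replicate 4 had the highest sum of the 9 genes and, level with double colored replicate 2, 28200 CPM of the markers. The part of the marker level in the sums was not tested.

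**Figure D4:**
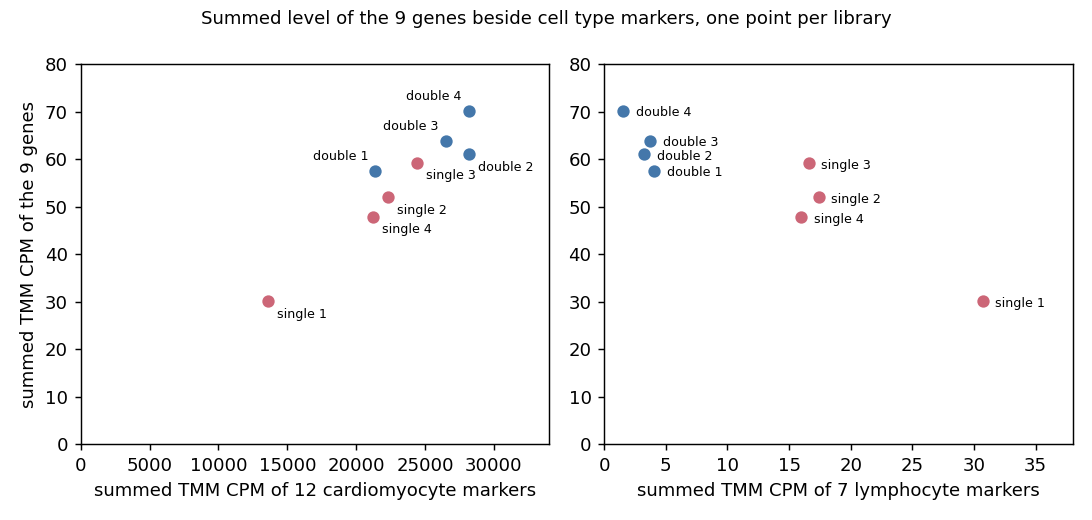
Summed TMM CPM of the 9 genes in each library against the summed TMM CPM of 12 cardiomyocyte markers (left) and 7 lymphocyte markers (right). Single colored replicate 1 has the lowest sum of the 9 genes, 30.1 CPM, with the lowest cardiomyocyte and the highest lymphocyte marker sum.

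Among genes expressed at 5 CPM or more, 4692 in all, those whose deviations from the group means were most like each member's over the 8 libraries were named. For Kcnd2 these were Ipo5 (r = 0.98), the cardiac transcription factor gene Gata4 (0.98) and Ppp2r3a (0.98). For Kcnip2 they were Sptb (0.99), Pdhx (0.98) and Slc25a4, the muscle adenine nucleotide carrier (0.98), and for Kcnh2 the mitochondrial flavoprotein gene Etfdh (0.99), Coq10a (0.98) and Hfe2 (0.98). Kcnk3 was most like Glud1 (0.99), Pcnt (0.99) and Prkaa2 (0.98), and Kcnd3 like Hsd17b4 (0.99), Crip2 (0.97) and Ptp4a3 (0.97). Kcnq1 was nearest to Mef2a (0.98), Dkc1 (0.96) and Mta2 (0.93). Kcna4, with only 5 to 13 reads per library, was nearest to Cul1 (0.96), Mta2 (0.96) and Dennd4c (0.95). Kcna5 and Kcne1 had other neighbours, Mfge8 (0.97), Jam2 (0.96) and Dnajc1 (0.95) for Kcna5, and Adgre5 (0.97), Igsf10 (0.97) and the collagen gene Col15a1 (0.96) for Kcne1. The highest of 4692 correlations over 8 libraries is large by selection, and the genes share library scaling. Single colored replicate 1, the lowest library for 5 of the 9 genes, was kept, and its part was not tested.

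Of 37 other potassium channel genes of the voltage-gated, auxiliary and two-pore families, 13 had enough reads to be tested and none passed the threshold (edgeR; at an unadjusted p under 0.05, 2 higher and 2 lower; 1 by DESeq2). Their median log2 fold change was −0.09. Kcnab2, a beta subunit of Kv1 channels, had 1.62, 0.593, 1.07 and 1.71 CPM in single and 0.544, 0.136, 0.346 and 0 CPM in double colored replicates 1 to 4, with no overlap. Its log2 fold change was 2.26 ± 0.66 (SE; edgeR adjusted p = 0.0900), and it passed with the block (edgeR adjusted p = 0.0257) and with DESeq2 (adjusted p = 0.0138). Kcna1, the Kv1.1 gene, had 15, 30, 26 and 16 reads in double and 20, 3, 0 and 0 reads in single colored replicates 1 to 4 (log2 fold change −2.47 ± 0.83 SE, edgeR adjusted p = 0.151), the lowest log2 fold change of all 12466 genes tested. It passed with the block (edgeR adjusted p = 0.0307) and without single colored replicate 1, where the log2 fold change was −4.65 (edgeR adjusted p = 0.0170). Kcnv2, a silent modifier subunit of Kv2 channels, had 0.576 to 1.12 CPM in single and 1.13 to 2.29 CPM in double colored libraries (−1.13 ± 0.38 SE, edgeR adjusted p = 0.145). Kcnd1, the third Kv4 gene, averaged 1.31 ± 0.653 CPM (single colored) against 0.616 ± 0.220 CPM (double colored; 1.09 ± 0.47 SE, edgeR adjusted p = 0.283), so that it and Kcnd2 had opposite signs.

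All 17 transcription factors and partner proteins that act on these channels were tested and none passed (edgeR; at an unadjusted p under 0.05, 1 higher and 1 lower; 0 by DESeq2). Their median was −0.19, and 13 lay below 0. Flna, which encodes the actin crosslinker filamin A that binds Kv4.2, averaged 30.2 ± 8.95 CPM (single colored) against 20.6 ± 2.47 CPM (double colored; log2 fold change 0.55 ± 0.19 SE, edgeR adjusted p = 0.158, and 0.0200 with the block), and 0.35 without single colored replicate 1. On the log2 scale Etv1, a transcription factor of fast-conducting muscle, differed by −0.80 ± 0.32, Cav3, the muscle caveolin, −0.56 ± 0.27, and Gata4 −0.31 ± 0.16 (SE; edgeR adjusted p = 0.238, 0.342 and 0.380). Gata4 was at −0.20 without single colored replicate 1. Irx5, a repressor of Kcnd2 in the ventricular wall (named after its values were seen), averaged 0.887 ± 0.279 CPM (single colored) against 1.31 ± 0.482 CPM (double colored; −0.55 ± 0.39 SE, edgeR adjusted p = 0.559).

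For comparison, 16 of 20 depolarizing and coupling channel genes were tested, and none passed (edgeR; at an unadjusted p under 0.05, 0 higher and 1 lower; 0 by DESeq2). Their median log2 fold change was −0.30, and 14 lay below 0. The T-type calcium channel gene Cacna1h was at −1.20 ± 0.56, the sodium-calcium exchanger Slc8a1 at −0.28 ± 0.15, and the calcium channel subunits Cacna2d1 and Cacnb2 at −0.34 ± 0.19 and −0.31 ± 0.19 (SE; edgeR adjusted p = 0.321, 0.418, 0.435 and 0.465). Without single colored replicate 1, Cacna2d1 was at −0.20 and Cacnb2 at −0.18, without double colored replicate 2 Cacna2d1 was at −0.21, and without single colored replicate 3 Cacnb2 was at −0.51. A difference between these genes and the repolarizing ones was not tested.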

How the data were processed

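RNA of 8 libraries was sequenced after isolation with the miRNeasy Micro Kit and amplification with the Ovation RNA-seq System v2, per the labels' protocols. Per the submitters' processing notes the authors used STAR 2.5.2b, mm9 and featureCounts of Subread; no strand setting is named there. The deposited columns used hold raw read counts per gene; the authors made them from aligned reads, and they are whole numbers, not estimated counts as deposited, so none was rounded. A deposited table of the authors gives log2 fold changes of double over single colored cells, each with a p-value and an FDR. A further 24 columns of CPM and FPKM were not used.

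A table of Ensembl gene names gave symbols for 32919 of 37991 identifiers. Counts were tested with edgeR 4.0.16 in R 4.3.3 (filterByExpr, minimum count 10, TMM factors, robust quasi-likelihood F-test, Benjamini-Hochberg adjustment over 12466 genes, threshold 0.05), after the test was tried on simulated data. The standard error derives from the F statistic. CPM use TMM factors (0.733 to 0.972 for double, 0.953 to 1.44 for single colored libraries). Read ratios within a library used a pseudocount of 0.5 and an exact permutation test over 70 groupings. Alternatives used DESeq2 1.42.0, limma 3.58.1 (voom with quality weights), other scalings and filters, a replicate block and the omission of libraries. Same-numbered libraries deviated together (correlations over genes of 0.257, 0.126, 0.136 and 0.139, against at most 0.108 for other numbers). For 3 of the 4 numbers the margin was small. The numbers were taken as pairs only in the alternative fit with a block and where numbered pairs are named. The numbers stand in the titles, and the labels and column headers carry them as ids shared by both groups. The values reported come from the fit without a block unless the block is named.

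Named genes were the 9 members, in each list the genes past the threshold and up to 4 with the smallest p, and the 3 genes most like each member (mean of at least 5 CPM, prior count of 2 on log2 CPM; predicted genes left out). The members and lists were chosen with earlier results of these data known. Of the listed potassium channel genes 36 of 37 were matched by symbol. Promoter windows are RefSeq's, GRCm38.p6.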

Additional observations from a re-analysis of the deposited data

Results flagged for a closer look

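In 2 of 26 groups of 4 values checked, the lowest library lay far from the others by Dixon's test, which flags about 1 in 20 groups by chance. Kcnip2 in single colored cells was 6.79 CPM in replicate 1 and 11.5 to 11.9 CPM in replicates 2 to 4, a gap of 0.910 of the group's whole range. Kcnh2 in single colored cells was 2.17 CPM in replicate 1 and 4.84 to 4.99 CPM in the others, a gap of 0.947 of the range. Replicate 1 also had the lowest cardiomyocyte marker sum, and its part in these gaps was not tested.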

How the results depend on the processing

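With the replicate block, which pairs the libraries by number, 939 of all genes passed in place of 309, with 1 of the 9 genes (Kcnd2), 2 other potassium channel genes and 1 partner gene. All genes passing numbered 556 with DESeq2, 1390 with library totals, 805 with no filter and 97 with the 5 CPM filter, and other potassium channel genes 1, 2 and 3 with DESeq2, library totals and no filter, and 1 with limma-voom. With library totals 1 partner gene passed. Leaving out 1 library at a time gave 134 to 304 genes (134 without double colored replicate 4, 142 without single colored replicate 1, 191 without double colored replicate 2), 0 to 1 of the 9 genes and 0 to 1 other potassium channel genes. Without both libraries numbered 1, chosen after seeing the data, 146 genes and 1 other potassium channel gene passed, and the log2 difference in the Kcna4 to Kcnd2 ratio turned to −0.11. Library totals turned the log2 fold changes of Kcnd3 (0.21), Kcnip2 (0.043), Kcna4 (0.077), Kcnq1 (0.033), Kcnh2 (0.00087), Kcnk3 (0.17), Gata4 (0.17), Slc8a1 (0.24), Cacna2d1 (0.12) and Cacnb2 (0.17) positive. Cardiomyocyte marker scaling, which moved the median of all genes to 0.45, did so for Kcnd3 (0.13), Kcna4 (0.065), Kcnq1 (0.015), Kcnk3 (0.041), Gata4 (0.085), Slc8a1 (0.15), Cacna2d1 (0.052) and Cacnb2 (0.078). Both moved the point that counts as no change; the cause of the other shifts was not tested. Depth limits Kcna4 most (5 to 13 reads per library).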

Other observations

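Kcna1 and Kcna6 lie on mm9 chromosome 6 beside Kcna5, on the same strand, at 126586481 to 126595819 and 126658347 to 126690680. Both Kcna5 and Kcna1 were low in single colored replicates 3 and 4, where Kcna1 had 0 reads, and differed in replicates 1 and 2: Kcna1 had 20 reads in replicate 1 and 3 in replicate 2, whereas Kcna5 had 33 and 75. Kcna6 had 0 to 3 reads per library and was not tested. These genes were set side by side after their values were seen.

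Kcna3, which encodes Kv1.3, the voltage-gated potassium channel of T lymphocytes, did not pass the filter on low counts. It had 34, 4, 10 and 26 reads in single and 0, 4, 3 and 0 reads in double colored replicates 1 to 4, 74 against 7 reads in all, and was named after its values were seen. The lymphocyte markers, 6 of 6 tested, were also higher in single colored cells. Their sums were 30.7, 17.4, 16.6 and 16.0 CPM in single colored replicates 1 to 4. In double colored replicates 1 to 4 they were 4.06, 3.23, 3.72 and 1.55 CPM. The part of lymphocytes in the Kcna3 reads was not tested.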
